A study of Mus musculus with 12 samples.

Results

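Pgr Greb1 double-positive fibroblasts are stromal cells of the mouse mammary gland in which transcripts of both the progesterone receptor Pgr and the estrogen-regulated gene Greb1 were counted. They were chosen by those counts. Among barcodes with at least 500 genes, at least 1000 unique molecular identifiers (UMIs) and at most 5% mitochondrial UMIs, a fibroblast was a cell with 20 or more UMIs of Col1a1, Col1a2 and Col3a1 together and none of Ptprc, Pecam1 or Epcam. A double-positive fibroblast also had at least 1 UMI of Pgr and at least 1 of Greb1. Of 58620 barcodes, 46257 passed the filters and 33709 were fibroblasts, of which 959 (2.84%) were double-positive. A further 1900 fibroblasts had Pgr only, 1982 had Greb1 only and 28868 had neither and are called double-negative. The levels of Pgr, Greb1 and the genes of the fibroblast rule are therefore descriptions, and none of them was tested.

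The cells came from the fourth mammary glands, with lymph nodes removed, of 43-week-old female C57BL/6J mice, profiled by droplet 3' RNA sequencing as 12 libraries with 1 library per group. Intact mice received no 4-vinylcyclohexene diepoxide (VCD). The other 11 groups received VCD at 160 mg/kg/day intraperitoneally for 15 days, which depletes ovarian follicles and leaves the ovary in place. VCD_Vehicle received no hormone, VCD_E2 received estradiol (E2, 1 µg per animal per day for 1 week) and VCD_E2_P4 received E2 with progesterone (P4, 1 mg per animal per day). VCD_Low_PBDE, VCD_Low_E2 and VCD_Low_E2_P4 repeated these 3 treatments with a low dose of a mixture of polybrominated diphenyl ethers (PBDE, flame retardants) in the food for 20 weeks. VCD_High_PBDE, VCD_High_PBDE_E2 and VCD_High_PBDE_E2_P4 did so with a high dose for 1 week, so the PBDE dose and its duration cannot be told apart. The doses of congeners 47, 100 and 153 were 0.05, 0.0028 and 0.0063 mg/kg/day in the low mixture and 1, 0.056 and 0.126 mg/kg/day in the high one. Groups without PBDE ate nutrient-matched food with the solvent DMSO, and the hormone vehicle was sesame oil. VCD_Vehicle_NormEnv was a vehicle group with possible environmental PBDE exposure from plastic cages, and VCD_E2_ICI received E2 and 1 dose of 5 mg per animal of the estrogen receptor antagonist ICI. Whether a library pooled several animals is not given in the sources used here.

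Estradiol enters the cell and binds estrogen receptor alpha (Esr1), a ligand-dependent transcription factor. In the mammary epithelium and the uterus, Pgr and Greb1 are classical Esr1 target genes. Pgr encodes the receptor that answers progesterone, and Greb1 encodes a protein that associates with the estrogen receptor on chromatin. In the mammary gland both receptors are best known from the hormone-sensing luminal cells of the ducts, which pass the hormone signal on to their neighbours through secreted factors. Fibroblasts surround these ducts and supply matrix and growth factors.

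Both genes that define the cells are shown with the 250 bases before their start as annotated by RefSeq on GRCm38.p6, because Esr1 is known to act through estrogen response elements near its targets. Pgr (ENSMUSG00000031870) lies on chromosome 9, 8899833 to 8968611, plus strand, and its window is chr9:8899583-8899832. Greb1 (ENSMUSG00000036523) lies on chromosome 12, 16670615 to 16800886, minus strand, and its window is chr12:16800887-16801136, 1 of 2 start sites listed for it. Both windows are printed 5' to 3' on the strand of the gene. Capitals mark a match to the response element half-site AGGTCA on the opposite strand, read here as TGACCT.
Pgr: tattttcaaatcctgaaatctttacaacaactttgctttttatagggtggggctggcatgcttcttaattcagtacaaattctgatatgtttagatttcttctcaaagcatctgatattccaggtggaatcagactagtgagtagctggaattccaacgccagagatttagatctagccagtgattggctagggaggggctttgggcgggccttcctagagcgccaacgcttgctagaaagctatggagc
Greb1: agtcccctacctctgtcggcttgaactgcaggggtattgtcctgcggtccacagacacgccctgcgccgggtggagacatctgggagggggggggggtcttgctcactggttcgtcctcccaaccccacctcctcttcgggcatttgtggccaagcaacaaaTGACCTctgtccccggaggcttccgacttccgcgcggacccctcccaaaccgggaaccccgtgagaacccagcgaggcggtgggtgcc
The full element, GGTCA and TGACC spaced by any 3 bases, was in neither window, and it occurred in 21 (0.0639%) of 32851 promoter windows of the same length searched on both strands. The half-site AGGTCA was found in 4607 windows (14.02%), among them that of Greb1, where the match starts 88 bases before the start of the gene. The Pgr window held no half-site match. The progesterone response half-site TGTTCT was in 5284 windows (16.1%) and in neither of these windows. The GC content was 43.6% in the Pgr window and 65.2% in that of Greb1. A letter match describes these windows only.

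Most members rested on few transcripts. Of the 959 cells, 390 (40.7%) held 1 UMI of Pgr, 190 held 2 and 379 held 3 or more, up to 37. For Greb1, 422 cells (44.0%) held 1 UMI, 207 held 2 and 330 held 3 or more, up to 20. The cells just inside the rule, with exactly 1 UMI of each gene, numbered 215 (22.4%), and those just outside were the 1900 cells with Pgr only and the 1982 with Greb1 only. Members were deeper than other fibroblasts, as a rule that asks for counts of 2 genes favours deep cells. Their median was 25468 UMIs and 4815 genes per cell, against 20741 UMIs in cells with Pgr only, 20919.5 with Greb1 only and 16201 in double-negative cells. Every test between classes below therefore used double-negative cells drawn within each library to match the UMIs of the members, in bins of 0.25 log2 units. In VCD_Low_E2 only 275 cells could be matched to the 349 members. Of the cells with 1 gene used below, 211 with Pgr only (median 24431 UMIs) and 239 with Greb1 only (26366 UMIs) could be matched there. The median of those 349 members was 30478 UMIs.

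Library depth ran from 41737881 to 109224969 UMIs, and the median fibroblast held 14495 to 22548 UMIs. Across libraries, 274 barcode sequences appeared more than once, and 15 member cells carried such a barcode. A doublet caller marked 0 to 6.15% of the members of a library. Hemoglobin transcripts, from red blood cells, reached 3 UMIs in 66 members (6.88%), of which 47 were in VCD_Low_E2 and 11 in VCD_E2. In double-negative cells, which are shallower, the figure was 2.55%. Within VCD_Low_E2 it was 13.5% of members and 5.98% of all fibroblasts. VCD_E2_ICI held 2 members and was left out of every comparison of expression, so that 11 libraries entered the comparisons of classes and 9 those of hormones.

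The label was checked against Esr1, fibroblast genes and markers of other cells. At least 1 UMI of Esr1 was counted in 86.9% of members, 76.6% of cells with Pgr only, 68.1% with Greb1 only and 44.5% of double-negative cells at their own depths. Over the 11 libraries the summed level of 10 fibroblast identity genes outside the rule, such as Pdgfra and Lum, was 16643 to 22560 CPM (UMIs of the genes per 1000000 UMIs summed over a class of cells in a library). In depth-matched double-negative cells it was 20337 to 25213 CPM, and it was lower in members in 11 of 11 libraries. By the test of classes given below, 5 of the 10 were lower in members (Col6a2, Col6a1, Lum, Serpinf1 and Pdgfrb) and 1 higher (Fbln1). Over all genes tested, 9.48% were lower and 9.46% higher. At least 1 UMI of a luminal keratin was counted in 399 members (41.6%), 48.7% of cells with Pgr only, 33.1% with Greb1 only and 22.6% of double-negative cells. These were mainly Krt19, at 23.9 to 121 CPM in members and 12.9 to 111 CPM in double-negative cells, while Krt8 and Krt18, the defining pair of luminal keratins, were each at most 2.80 CPM in members. The 12 luminal hormone-sensing markers summed to 41.4 to 144 CPM in members and 33.2 to 138 CPM in double-negative cells. Without cells that held a luminal keratin, the test of classes given below called 1266 genes over all fibroblasts, 1056 of them among its 1645 calls, and 387 inside the Dpp4 Pi16 gate, 313 of them among 659.

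Markers of other cell types are given as sums. Immune markers summed to 21.0 to 63.0 CPM in members and 25.5 to 440 CPM in double-negative cells. Schwann cell markers summed to 31.4 to 67.2 CPM in members and 28.5 to 47.9 CPM in double-negative cells, and 1 of the 2 tested, the myelin gene Mbp, was higher in members (log2 fold change 1.06, SE 0.177, adjusted p = 0.000283). Pericyte markers summed to 7.03 to 48.3 CPM in members and 14.5 to 46.5 CPM in double-negative cells. The adipocyte genes Cidec and Lep and the mesothelial genes Msln, Upk1b and Lrrn4 were at 0 in the members of all 11 libraries.

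The share of double-positive cells among fibroblasts differed widely between libraries. Without correction for depth it was 4.46% in Intact (120 of 2690 cells), 2.21% in VCD_Vehicle (65 of 2936) and 2.53% in VCD_Vehicle_NormEnv (73 of 2881). It was 4.32% in VCD_E2 (107 of 2475), 12.7% in VCD_Low_E2 (349 of 2742) and 3.49% in VCD_High_PBDE_E2 (71 of 2035). VCD_Low_E2 alone supplied 36.4% of all members. With E2 and P4 the share was 1.47% in VCD_E2_P4 (43 of 2935), 0.548% in VCD_Low_E2_P4 (30 of 5470) and 3.14% in VCD_High_PBDE_E2_P4 (47 of 1496). PBDE without hormone gave 0.753% in VCD_Low_PBDE (27 of 3588) and 1.01% in VCD_High_PBDE (25 of 2478). The lowest share was 0.101% in VCD_E2_ICI (2 of 1983). Shares say nothing about whether the cells were more numerous or carried more of the transcripts, which cannot be told apart.

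To put the libraries at 1 depth, each fibroblast was thinned at random to 5000 UMIs and shallower cells were left out. The highest share was again that of VCD_Low_E2, at 2.53% (67 of 2650 cells, exact 95% binomial interval 1.96 to 3.20%), followed by Intact at 1.46% (38 of 2599, 1.04 to 2.00%). These intervals cover counting error only. The interval of VCD_Low_E2 overlapped only that of Intact, and the interval of Intact overlapped also that of VCD_High_PBDE_E2 at 0.665% (13 of 1955, 0.355 to 1.13%). Among libraries without hormone, VCD_Vehicle had 0.528% (15 of 2839, 0.296 to 0.870%), VCD_Vehicle_NormEnv 0.358% (10 of 2795, 0.172 to 0.657%), VCD_High_PBDE 0.165% (4 of 2421, 0.0450 to 0.422%) and VCD_Low_PBDE 0.114% (4 of 3512, 0.0310 to 0.291%). VCD_E2 had 0.370% (9 of 2431, 0.169 to 0.702%), within the interval of VCD_Vehicle. With E2 and P4, VCD_High_PBDE_E2_P4 had 0.488% (7 of 1433, 0.197 to 1.00%), VCD_E2_P4 0.106% (3 of 2833, 0.0218 to 0.309%) and VCD_Low_E2_P4 0.0246% (1 of 4059, 0.000624 to 0.137%). VCD_E2_ICI had 0.0521% (1 of 1921, 0.00132 to 0.290%).

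**Figure D1:**
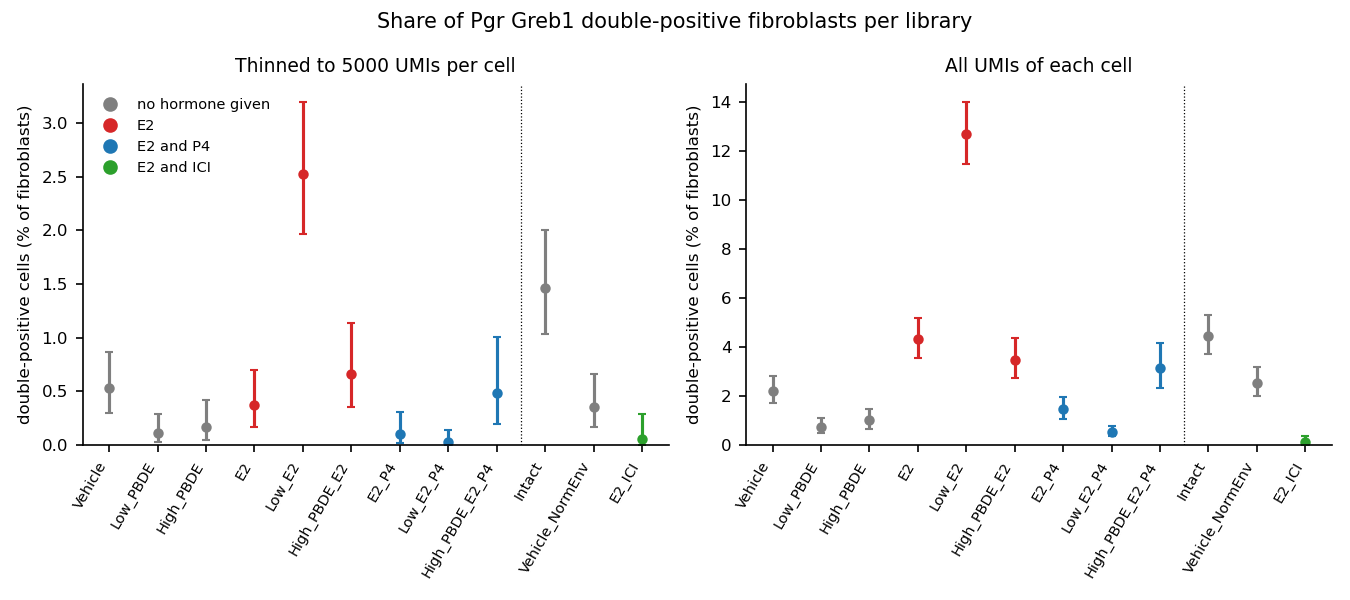
Share of double-positive cells among fibroblasts (%, y axis) in each of the 12 libraries (x axis, VCD_ left off the names), after thinning each cell to 5000 UMIs on the left and with all UMIs on the right. Points are 1 library each with exact 95% binomial intervals, coloured by hormone, and the 3 libraries right of the dotted line lie outside the layout of hormone and PBDE. VCD_Low_E2 stands highest in both panels at 2.53% and 12.7%.

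Each of the 2 genes alone followed nearly the same order of libraries. After thinning, Pgr was counted in 8.87% of fibroblasts in VCD_Low_E2, 4.85% in Intact, 4.71% in VCD_High_PBDE_E2 and 3.74% in VCD_E2. It was counted in 3.49% in VCD_Vehicle, 1.55% in VCD_Low_E2_P4 and 0.781% in VCD_E2_ICI. Greb1 was counted in 9.96%, 4.77%, 4.65% and 3.78% of the cells of the first 4 of these libraries and in 2.96%, 1.63% and 0.573% of the last 3. Esr1 varied less, from 19.2% to 25.1%. As a measure of free RNA, 3445 immune cells, thinned in the same way, had Pgr in 0.145%, Greb1 in 0.116% and both in none, which allows a share of up to 0.0871% (3 counts of the total). The median immune cell held 7034.5 UMIs before thinning. These cells held at least 1 UMI of Ptprc and under 20 of the collagens, so immune cells with more collagen RNA were left out. The values pool all libraries. By library, Greb1 was highest at 0.459% of 436 cells in VCD_Low_E2 and Pgr at 0.429% of 233 cells in Intact. The double-positive shares of VCD_Low_E2_P4 and VCD_E2_ICI, of 1 cell each, lay below that limit and that of VCD_E2_P4, of 3 cells, lay just above it, while Pgr and Greb1 singly were more frequent in all 3 libraries than in immune cells.

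Whether the hormones changed the share was asked over the 9 libraries in which all 3 hormone treatments were crossed with no, low and high PBDE. E2 with or without P4 against no hormone gave a mean difference of 0.38 in logit share (odds ratio 1.47), with an exact two-sided permutation p of 0.778 over 27 arrangements within PBDE levels. The odds ratio of E2 against no hormone was 0.715 without PBDE, 20.4 with low and 3.73 with high PBDE, and the value without PBDE rests on 9 and 15 cells. That value did not keep its direction, since another random thinning gave 0.494% in VCD_E2 and 0.493% in VCD_Vehicle, thinning to 10000 UMIs gave 1.57% and 1.28%, and no thinning 4.32% and 2.21%. The value with low PBDE rests on 67 and 4 cells, and another random thinning counted 88 and 2. Over all 3 levels the mean difference was 1.14 when cells were thinned to 2500 UMIs, 0.88 without thinning and 0.85 without marked doublets. It was 0.14 without cells that held at least 3 hemoglobin UMIs. The exact permutation p over the alternatives that kept all 9 libraries was 0.407 to 0.852. Without VCD_Low_E2 the mean difference was -0.021. The libraries carry code 1 or code 2 in their deposited names, a code whose meaning is not stated. The mean difference was -0.19 among those with code 1 and 0.85 among those with code 2, not taken within PBDE levels. In the layout, code 1 covers the libraries without PBDE and VCD_Low_PBDE, so PBDE level and hormone are mixed in both values. At low PBDE the library without hormone carries code 1 and those with hormone code 2. Hormone and code therefore cannot be told apart in the odds ratio of 20.4.

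P4 given with E2 gave a lower share than E2 alone at all 3 PBDE levels in this thinning, but not in every alternative. The odds ratios were 0.315 without PBDE, 0.0141 with low and 0.757 with high PBDE, and the mean difference was -1.90 in logit share (odds ratio 0.150). The exact two-sided permutation p was 0.25, the smallest that the 8 arrangements allow, so this design cannot pass 0.05. Leaving out 1 library at a time gave -2.58 to -1.25. Thinned to 2500 UMIs, VCD_E2_P4 had 0.137% (4 cells) and VCD_E2 0.122% (3 cells). Without cells that held hemoglobin, VCD_High_PBDE_E2_P4 had 0.802% and VCD_High_PBDE_E2 0.517%, and the exact permutation p was 0.5 in both alternatives. VCD_E2_ICI, Intact and VCD_Vehicle_NormEnv are 1 library each outside this layout and enter no test.

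Pgr and Greb1 transcripts were counted in the same fibroblasts more often than their separate frequencies within library and depth bins would give. Within depth bins the odds of Greb1 in cells with Pgr were 2.28 (VCD_High_PBDE) to 6.50 (Intact) times those in cells without it. The ratio was above 1 in all 12 libraries, among them 2.73 in VCD_E2_P4, 4.89 in VCD_Low_E2 and 2.98 on the 2 cells of VCD_E2_ICI. In numbers, 959 cells carried both, where 512 would if the genes fell independently within library and depth bin. Of 2859 cells with Pgr, 33.5% had Greb1, and of 2941 cells with Greb1, 32.6% had Pgr. These ratios describe cells of shared libraries and have no test.

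The double-positive cells lay mainly in 1 region of the fibroblast compartment. Of the 959 members, 764 (79.7%) held at least 3 UMIs each of Dpp4, a membrane peptidase, and Pi16, a peptidase inhibitor, against 13210 of all 33709 fibroblasts (39.2%), which are shallower. Among double-negative cells matched in depth the gate held 421 of 884 (47.6%), and the share of members was the higher in all 11 libraries fitted. At matched depth, double-negative cells ran from 30% in VCD_Low_E2_P4 to 61.3% in VCD_E2, where members had 93.3% and 79.4%. Lying in the gate was not particular to members. In every library most cells with Pgr, members included and depth not matched, lay inside it. These were 225 of 264 in Intact, 225 of 288 in VCD_E2 and 423 of 612 in VCD_Low_E2. For cells with Greb1, members included, the numbers were 183 of 304, 211 of 315 and 350 of 648. Dpp4 and Pi16 mark the population named Fib_0 by the study. The share of members inside this Dpp4 Pi16 gate was 62.2% in VCD_Low_E2 and 100% in VCD_High_PBDE_E2_P4. Within the gate the odds ratio of Pgr with Greb1 ran from 1.89 (VCD_Low_E2_P4) to 4.10 (Intact).

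Against depth-matched double-negative fibroblasts of the same libraries, the members had more of the estrogen receptor Esr1, of the steroid-metabolizing enzymes Akr1c14 and Akr1c18, of Dpp4 and Pi16 and of interferon-induced genes. They had less of adipogenic genes such as Fabp4, of basement membrane collagens and of Scg3 and Enpp2. Of 8686 genes tested, 1645 (18.9%) passed an adjusted p of 0.05 in a quasi-likelihood test of edgeR that took each library as a block, 822 (9.46%) higher in members and 823 (9.48%) lower. At an unadjusted p under 0.05 there were 2598. Libraries are the replicates here, each from a different treatment, so the spread includes how treatments change the contrast.

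The steroid receptor genes come first because hormones act through them. Pgr in members was 53.1 CPM in VCD_Low_E2_P4, 97.0 in the median library and 250.8 in Intact, and Greb1 was 52.2 in VCD_E2_P4, 72.2 in the median library and 122.9 in VCD_Low_E2. Esr1, estrogen receptor alpha, stood at 89.7, 124 and 157 CPM in the lowest, median and highest library in members, and at 37.0, 55.3 and 70.6 CPM in double-negative cells. The groups did not overlap, and the log2 fold change was 1.16 (SE 0.078, adjusted p = 1.79e-08). Nr3c1, the glucocorticoid receptor, had a log2 fold change of 0.04 (adjusted p = 0.79). The membrane-associated progesterone-binding proteins gave -0.30 for Pgrmc1 (adjusted p = 0.042) and -0.12 for Pgrmc2 (adjusted p = 0.515), and the call of Pgrmc1 was lost under 10 of 22 alternatives. The mineralocorticoid receptor Nr3c2 was too low to test, at 2.8 CPM ± 1.5 in members and 3.8 CPM ± 2.2 in double-negative cells. Esr2, estrogen receptor beta, was at 0 in every class.

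Among the enzymes that act on steroids, Akr1c14 was 1 of the 10 genes named for the largest rise in members. Akr1c14, a hydroxysteroid dehydrogenase (chromosome 13, 4049011 to 4090688), was 120, 183 and 411 CPM in the lowest, median and highest library in members and 15.4, 38.0 and 78.4 CPM in double-negative cells. No library of members reached down to the double-negative range, and the log2 fold change was 2.37 (SE 0.137, adjusted p = 2.87e-09). Akr1c18, which inactivates progesterone, was 656 CPM ± 200 (SD, n = 11) against 209 CPM ± 125 (log2 fold change 1.78, SE 0.211, adjusted p = 7.85e-06). It also belongs to the Fib_0 markers. Of 20 enzymes listed, 10 were tested, 3 were higher and 1 was lower, against 9.46% and 9.48% of all genes. The third higher one was Cyp7b1, an oxysterol hydroxylase, at 0.60 (adjusted p = 0.0488), a call lost under 11 of 21 alternatives. The lower one was Cyp1b1, which hydroxylates estrogens, at -1.92 (adjusted p = 1.68e-06).

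Of 30 estrogen receptor targets known from epithelium, 18 were tested, 2 were higher (9.46% over all genes) and 5 were lower (9.48%), with a median log2 fold change of -0.06 beside -0.0044 over all genes. The higher ones were Ccnd1, the G1 cyclin, at 0.84, and Wisp2, a secreted matricellular protein. Wisp2 was 96.9, 239.99 and 743 CPM in the lowest, median and highest library in members against 29.4, 54.4 and 130 CPM in double-negative cells (log2 fold change 2.10, SE 0.224, adjusted p = 2.61e-06). Xbp1, a factor of the unfolded protein response, was lower at -0.37. The 12 tested of 15 progesterone and glucocorticoid targets had 2 higher, Errfi1 at 0.71 and Pik3r1 at 0.43, and 5 lower, among them Sgk1 at -0.79, Mt1 at -0.68 and Tsc22d3 at -0.62. Of 20 genes of the progesterone-responsive uterine stroma, 8 were tested, with Foxo1 higher at 0.67 and 4 lower, among them Nr2f2, an orphan nuclear receptor, at -1.50. Of 19 receptor cofactors and chaperones, 16 were tested, 1 was higher and 2 were lower.

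The most raised genes had varied known roles. Il31ra, a receptor subunit for interleukin 31 (chromosome 13, 112519898 to 112594360), was 12.6, 30.5 and 61.4 CPM in the lowest, median and highest library in members and 0, 2.9 and 7.9 CPM in double-negative cells. The ranges did not overlap (log2 fold change 3.37, SE 0.210, adjusted p = 7.49e-09). Trdn, triadin of the calcium release complex, was 37.2 CPM ± 18.5 (SD, n = 11) against 2.0 CPM ± 2.6 (3.40, SE 0.419, adjusted p = 1.21e-05). Tmod1, which caps actin filaments, was 35.6 CPM ± 17.5 against 7.1 CPM ± 4.8 (2.43, SE 0.182, adjusted p = 4.53e-08). Kdr, the VEGF receptor of endothelium, was 37.5 CPM ± 12.02 against 8.0 CPM ± 4.0 (2.12, SE 0.177, adjusted p = 1.55e-07), while the defining endothelial gene Cdh5 stayed at or below 0.274 CPM in members. The 6 endothelial markers, Kdr included, summed to 20.9 to 56.6 CPM in members and 8.23 to 49.0 CPM in double-negative cells. Tdo2, a tryptophan dioxygenase, was higher by 2.13 and the homeobox gene Irx1 by 2.04.

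The most reduced genes included 3 markers of other fibroblast populations, Scg3, Fabp4 and Sparcl1. Scg3, a secretogranin (chromosome 9, 75643189 to 75684056), was 1.8, 4.7 and 28.8 CPM in the lowest, median and highest library in members against 41.2, 102 and 266 CPM in double-negative cells (log2 fold change -3.92, SE 0.200, adjusted p = 1.04e-09). Enpp2, the enzyme that makes lysophosphatidic acid, was 30.2 CPM ± 13.1 (SD, n = 11) against 190.0 CPM ± 66.8 (-2.78, SE 0.145, adjusted p = 1.04e-09). Fabp4, a fatty acid carrier of adipogenic cells, was 62.5 CPM ± 59.8 against 887 CPM ± 677 (-3.91, SE 0.310). Sparcl1, a matrix protein, was lower by 2.92 on the log2 scale, at 113 against 724 CPM. Fgf10, a mesenchymal growth factor that acts on epithelium, was at 5.1 against 35.7 CPM (-2.96). Vtn, Adcyap1r1, Cldn15, Epas1, Egflam and Hc also stood among the most reduced, between -3.89 and -2.94.

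By the marker lists of the fibroblast populations, 7 of 9 Fib_0 genes were higher and 0 lower, with a median log2 fold change of 0.73, where 9.46% of all genes tested were higher and 9.48% lower. All 10 Fib_1 genes were lower (median -1.91), as were 8 of the 9 tested of Fib_2 (median -1.52) and 6 of 9 of Fib_3 (median -0.84). These lists rest on the study's description of the same cells and are not independent of them. Among Fib_0 genes, Dpp4 was 507 CPM ± 129 (SD, n = 11) against 272 CPM ± 36.2 (0.83, adjusted p = 0.000136), and Pi16 differed by 0.63 (adjusted p = 0.00979). The exceptions among the lower lists were Mfap4 of Fib_2 at 1.12 and Gas6 and Inmt of Fib_3 at 1.07 and 1.04. Cilp, a cartilage matrix protein that marks another small group, was higher by 1.51.

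Of 36 interferon-induced genes, 31 were tested and 21 were higher with none lower, a median log2 fold change of 0.51. For this and the lists that follow, 9.46% of all genes tested were higher and 9.48% lower. Bst2, a membrane tether of viruses, was 799 CPM ± 346 (SD, n = 11) against 375 CPM ± 174 (1.07, adjusted p = 1.23e-06), and Irf7, the master regulator of interferon production, was higher by 0.96. Of 23 collagens outside the rule, 14 were tested and 10 were lower (median -1.07). Col4a1, a chain of basement membrane, was 355 CPM ± 126 against 1331 CPM ± 297 (-1.95), whereas Col14a1 and Col16a1, which associate with fibrils, were higher by 0.27 each. Of 48 growth factors that can act on epithelium, 33 were tested, 8 were higher and 9 were lower. Fgf9 was higher by 1.78, Wnt16 by 1.05 and Figf, the lymphangiogenic factor VEGF-D, by 0.96 (SE 0.110, adjusted p = 5.74e-06, 269 CPM ± 116 against 137 CPM ± 59.8). Kitl was lower by 0.98 on the log2 scale, Bmp2 by 0.60 and Cxcl12 by 0.56. Of 18 immediate early and heat shock genes, which rise when tissue is dissociated, 1 was higher, Nr4a1 at 0.40, and 9 were lower, among them Ier2 at -1.04, Zfp36 at -0.99 and Junb at -0.68. Of 29 tested positional transcription factors 8 were higher, among them Osr2 at 0.93 and Meis1 at 0.69, and 6 were lower, among them Shox2 at -0.74. None of 3 tested cell cycle genes passed the test. These counts set members against double-negative cells only, and cells with Pgr only were not tested. Summed over libraries, whose mix differs between classes, Irf7 was 272 CPM with Pgr only, 266 CPM with both and 163 CPM with neither. Col4a1 was 424, 463 and 1247 CPM and Zfp36 1181, 1223 and 2132 CPM in the same order. Bst2 was 762, 954 and 455 CPM. Some of these differences were thus shared by cells with Pgr only.

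**Figure D2:**
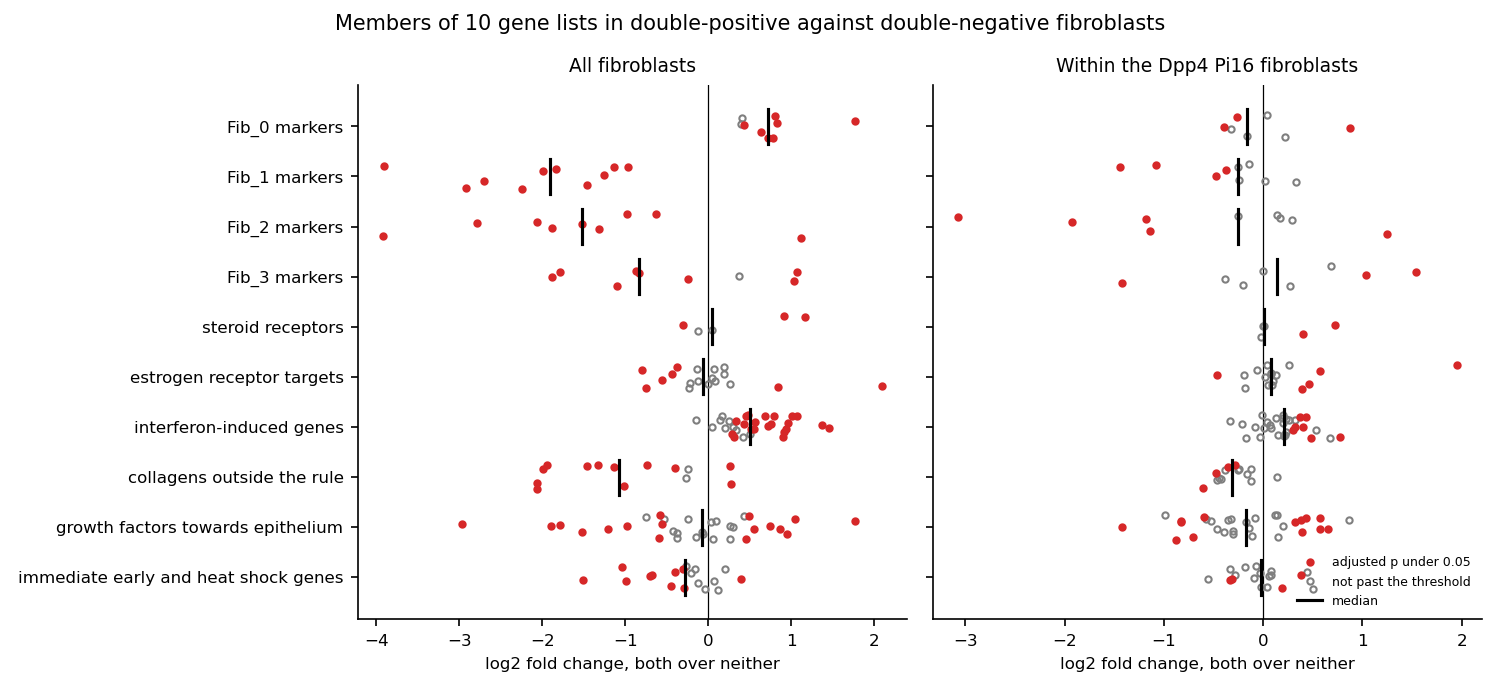
Log2 fold change (x axis) of double-positive over depth-matched double-negative cells for the tested members of 10 gene lists (y axis), in all fibroblasts on the left and inside the Dpp4 Pi16 gate on the right. Points are genes, filled red where the adjusted p was under 0.05, and black bars are list medians. The Fib_1 genes lie left of 0 with a median of -1.91 in the left panel, and the interferon-induced genes lie mostly right of 0 with medians of 0.51 and 0.21.

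For some genes, cells with only 1 of the transcripts took values between those of the other classes, which is described here without a test. At matched depth Akr1c14 was 41.7 CPM ± 17.2 (SD over 11 libraries) in cells with neither gene, 97.9 CPM ± 28.0 with Greb1 only, 134 CPM ± 38.2 with Pgr only and 221 CPM ± 94.1 with both. Esr1 had the same order, at 52.7 CPM ± 10.7, 82.7 CPM ± 15.7, 98.3 CPM ± 11.8 and 123 CPM ± 21.0. Scg3 had the reverse order, at 150 CPM ± 81.0, 43.2, 23.6 and 9.1 CPM ± 8.5. Wisp2 did not follow it, since cells with Greb1 only had 241 CPM and cells with Pgr only 129 CPM. Fabp4 had the order of Scg3, at 887, 667, 122 and 62.5 CPM. Dpp4 was 528 CPM ± 56.5 with Pgr only and 507 CPM ± 129 with both, and Pi16 was 3429 CPM ± 956 and 2748 CPM ± 1139. Both classes come from the same libraries, so these SDs do not measure the difference between them.

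**Figure D3:**
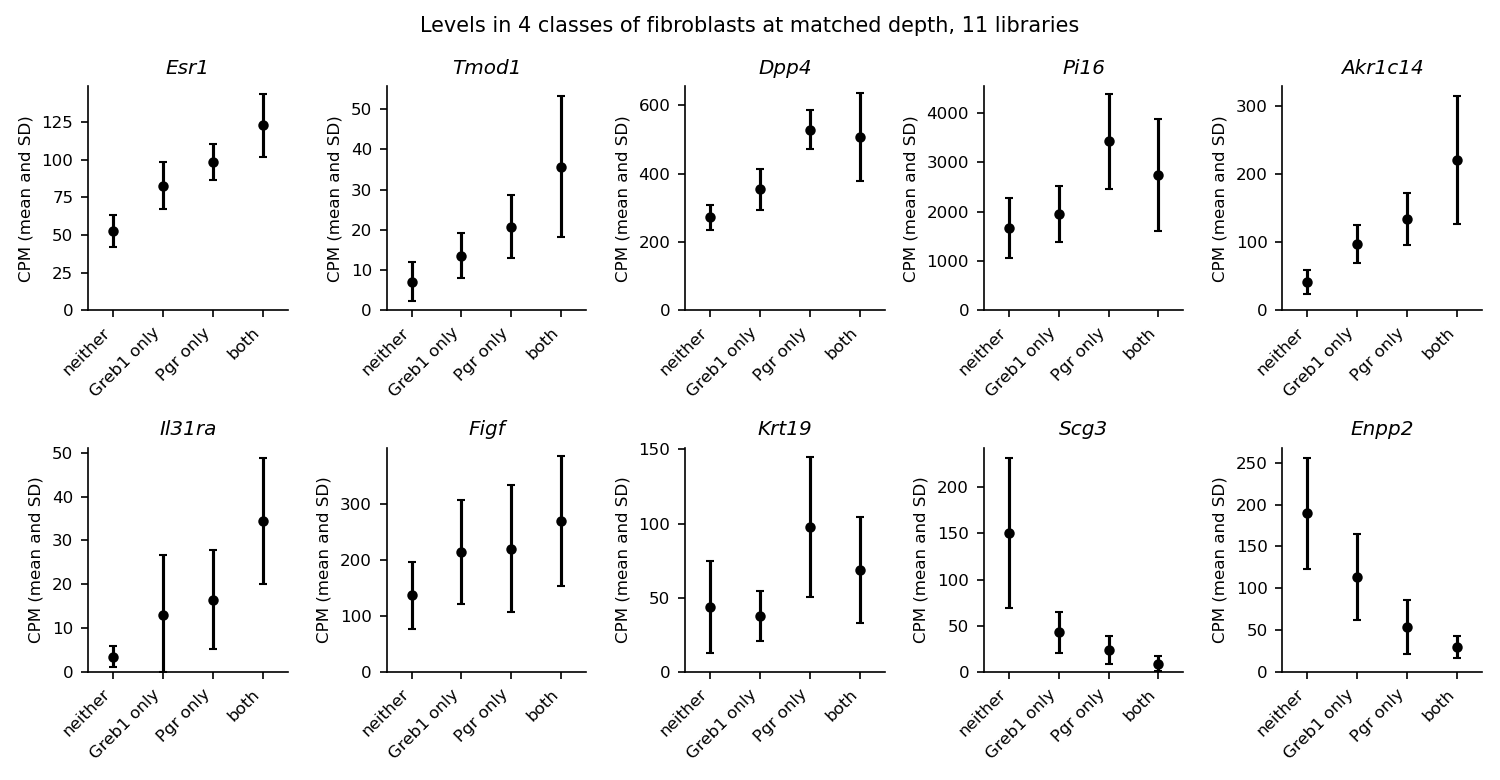
Levels (CPM, y axis) of 10 genes in 4 classes of fibroblasts (x axis), matched in depth to the double-positive cells as far as enough cells were at hand. Points are means and bars are SD over 11 libraries. Akr1c14 climbs from 41.7 to 221 CPM and Scg3 drops from 150 to 9.1 CPM between cells with neither gene and cells with both.

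The 215 members with exactly 1 UMI of each gene were close to the rest for some genes and between classes for others. The values are sums over libraries, and VCD_Low_E2 supplied 38 of these 215 cells but 349 of all 959 members, so the mix of libraries differs between the classes. Esr1 was 109 CPM in them and 109 CPM in all members, against 50.9 CPM in double-negative cells. Il31ra was 31.5 CPM in them, 38.0 in all members, 15.0 in cells with Pgr only and 12.7 with Greb1 only. Akr1c14 was 159 CPM in them and 285 CPM in all members, and Wisp2 was 155 and 496 CPM. Scg3 was 14.9 CPM in them, 11.6 in all members and 168 in double-negative cells.

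Since most members lay in the Dpp4 Pi16 gate, the classes were compared again inside it, where both hold at least 3 UMIs of Dpp4 and of Pi16. Esr1, Akr1c14, Il31ra, Tmod1 and Wisp2 were still higher in members, and Scg3, Enpp2, Uchl1 and Crip2 were lower. Of 8407 genes tested, 659 (7.84%) passed the same test, 342 (4.07%) higher and 317 (3.77%) lower. This comparison shares its member cells with the one above, so both are given side by side and not as separate evidence.

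Inside the gate Esr1 was 122 CPM in members and 72.5 CPM ± 19.8 (SD, n = 11) in double-negative cells (log2 fold change 0.73, SE 0.096, adjusted p = 5.11e-05). Nr3c1 (0.01) and Pgrmc1 (0.00, adjusted p = 0.999) did not pass. Akr1c14 was 211 CPM ± 85.6 against 66.2 CPM ± 20.8 (1.67, SE 0.146, adjusted p = 4.08e-07). Akr1c18 differed by 0.87 (adjusted p = 4.22e-05), Cyp7b1 by 1.39 (adjusted p = 0.000457) and Cyp1b1 by -0.79 (adjusted p = 0.0341), a call lost under 7 of 22 alternatives. Esr1, Akr1c14 and Akr1c18 were thus higher in members both over all fibroblasts and inside the gate. Akr1c18 was not particular to members. Over all fibroblasts and summed over libraries, it was 623 CPM in cells with Pgr only, 551 CPM in members and 194 CPM in double-negative cells.

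Among the other genes with the largest differences inside the gate were Il31ra at 2.56 (SE 0.266, adjusted p = 4.06e-06), Celf4, an RNA-binding protein, at 2.34, and Tgm2, a transglutaminase, at 2.27. Tmod1 stood at 2.14 (SE 0.153, adjusted p = 3.33e-08) and Wisp2 at 1.95 (SE 0.195, adjusted p = 2.41e-06). Marcksl1, a regulator of actin, stood at 1.60. Arl4c, a small GTPase, was higher by 2.29 over all fibroblasts and by 1.87 inside the gate. On the lower side Scg3 stood at -3.08 (SE 0.208, adjusted p = 2.24e-08). Enpp2 was 10.5 to 29.0 CPM in members and 32.1 to 114 CPM in double-negative cells, with no overlap (-1.93, SE 0.115, adjusted p = 4.54e-09). Uchl1, a ubiquitin hydrolase, was 19.7 CPM ± 8.2 (SD, n = 11) against 88.0 CPM ± 48.8 (-2.00). Il34, a ligand of the macrophage receptor Csf1r, was 15.6 against 51.0 CPM (-1.65), and Crip2 was 23.3 against 69.9 CPM (-1.45). The secreted factors Bmp3 and Gdf10 were lower at -1.46 and -1.43.

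**Figure D4:**
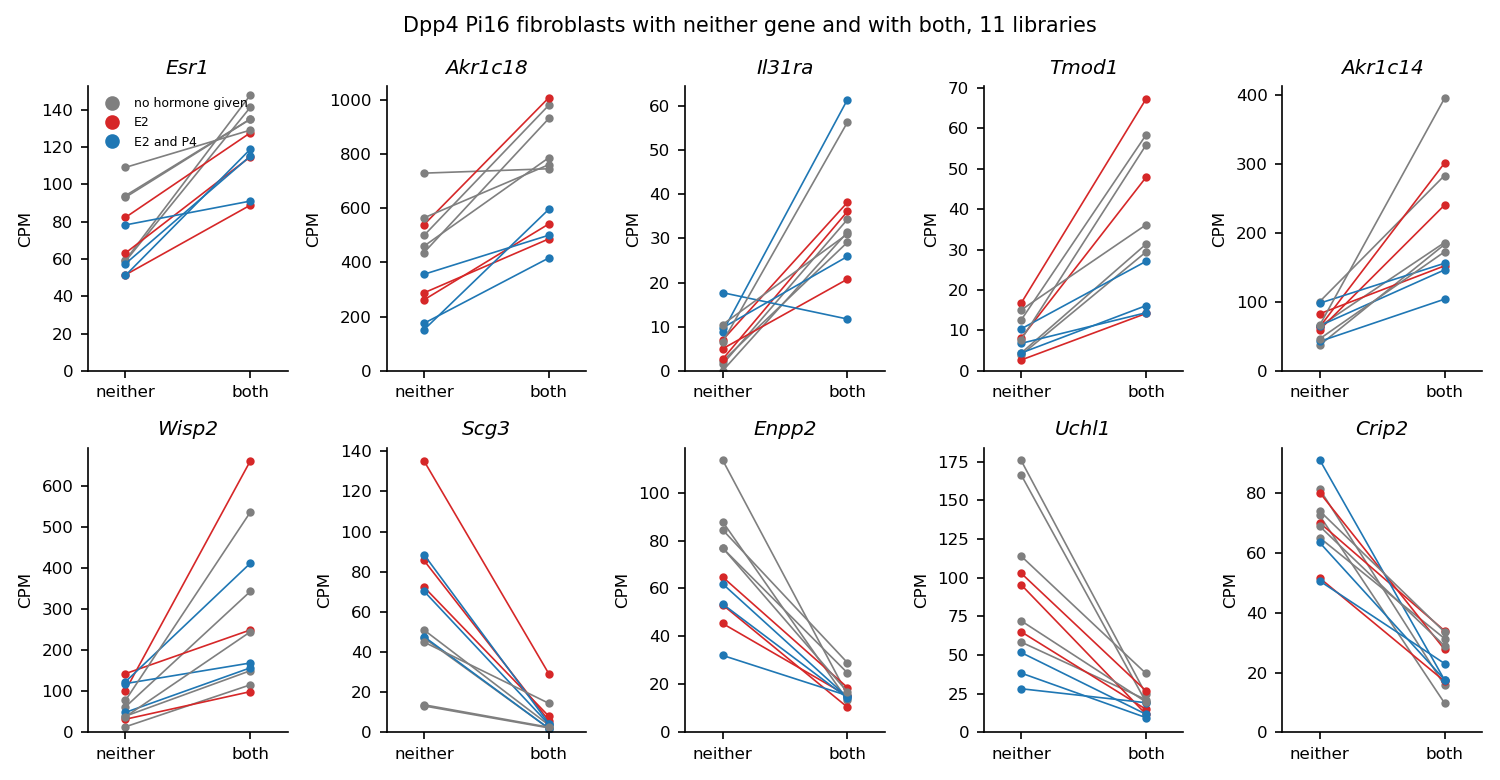
Levels (CPM, y axis) of 10 genes in double-negative (neither) and double-positive (both) cells of the Dpp4 Pi16 gate. Each line joins the 2 classes of 1 of 11 libraries and is coloured by hormone. Enpp2 and Crip2 are lower in the double-positive cells of every library, and Akr1c14 is higher in every library.

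Inside the gate, where fewer cells were summed, the lists gave these counts, beside 4.07% higher and 3.77% lower over all genes. Of 31 interferon-induced genes tested, 7 were higher and 0 lower (median 0.21), with Bst2 at 0.48 (adjusted p = 0.000527) and Irf7 at 0.13 (adjusted p = 0.745). Of 14 collagens 4 were lower (median -0.32), with Col4a1 at -0.39 (adjusted p = 0.0816). Of 17 estrogen receptor targets 4 were higher, among them Wisp2 and the insulin receptor substrate Irs1 at 0.46, and 1, the binding protein Igfbp4, was lower at -0.47, with a median of 0.08 beside 0.00085 over all genes. Of 31 growth factors 7 were higher, among them Igf1 at 0.58, Figf at 0.57 and Cxcl12 at 0.39, and 6 were lower, among them Bmp2 at -0.88, Bmp4 at -0.82 and Wnt11 at -0.71. Cxcl12 was thus lower over all fibroblasts and higher inside the gate, as Col14a1 was higher over all (0.27) and lower inside it (-0.28). Of the Fib_0 genes tested here, 1 of 7 was higher and 2 were lower. Of 2 luminal genes tested, Cldn3 was lower.

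Outside the gate, 3 libraries held more than 10 members each, 20 in Intact, 22 in VCD_E2 and 132 in VCD_Low_E2, and their levels are given without a test. Akr1c14 was 539, 301 and 421 CPM in these members, 396, 241 and 302 CPM in the members inside the gate and 47.6, 47.8 and 56.1 CPM in double-negative cells of the same libraries. Il31ra was 46.8, 23.8 and 51.6 CPM outside, against 2.88, 3.54 and 2.61 CPM in double-negative cells. Esr1 was 161, 95.1 and 91.2 CPM outside, against 70.6, 48.4 and 39.6 CPM in double-negative cells. The members outside the gate were therefore above these double-negative cells for all 3 genes in all 3 libraries. The double-negative cells were matched in depth to all members, and 41.7%, 61.3% and 45.5% of them lay inside the gate. Members outside had medians of 10940, 36104.5 and 29090 UMIs, against 24718.5, 31033 and 30826 inside. In Intact the members outside were thus much shallower. These 3 genes do not stand for all genes that were higher in members. They differed from members inside it in Gas6, a ligand of TAM receptors, at 1342, 938 and 1437 CPM against 586, 466 and 601 CPM. Cilp was also higher outside, at 475, 1069 and 2128 CPM against 316, 874 and 951 CPM.

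The effect of the hormones on gene levels within the double-positive cells was asked over the same 9 libraries, in a fit with hormone and PBDE level and 4 residual degrees of freedom. The cells in each library were chosen by their Pgr and Greb1 UMIs, so a hormone may change which cells are members as well as what they express, and these cannot be told apart. With E2, alone or with P4, 14 of 32 tested interferon-induced genes rose, as did Lrrc15, Cthrc1, Figf and Ctla2a. Mrgprg, Itgb7 and Dact2 fell. Of 8781 genes tested, 133 (1.51%) passed an adjusted p of 0.05 in edgeR's quasi-likelihood test, 86 (0.979%) higher and 47 (0.535%) lower, and 1192 had an unadjusted p under 0.05. The count depended on single libraries, as it was 2 without VCD_Vehicle, 9 without VCD_Low_PBDE, 60 without VCD_E2, 63 without VCD_High_PBDE, 80 without VCD_E2_P4 and 391 without VCD_High_PBDE_E2. With the code of the deposited names as a term it was 11.

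Irf7 was the only 1 of the 10 genes with the largest called changes whose call held under every alternative. In members without hormone it was 87.2 CPM in VCD_Vehicle, 54.1 in VCD_Low_PBDE and 56.6 in VCD_High_PBDE. With E2 it was 338 CPM in VCD_E2, 272 in VCD_Low_E2 and 321 in VCD_High_PBDE_E2. With E2 and P4 it was 494, 440.0 and 542 CPM in the same order of PBDE. No library without hormone reached a library with it, and the log2 fold change was 2.55 (SE 0.161, adjusted p = 0.000106). Outside the layout Irf7 was 94.0 CPM in Intact, 159.8 in VCD_Vehicle_NormEnv and 25.8 in the 2 cells of VCD_E2_ICI. Those 2 cells held 38696 UMIs together, and 25.8 CPM is the lowest level above 0 that so few UMIs can show. None of the 32 interferon-induced genes fell, and their median log2 fold change was 1.00 beside -0.012 over all genes. Lgals3bp rose by 1.43, Bst2 by 1.42 and Ifi27l2a by 1.17.

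Figf, at 161, 103 and 159 CPM in members without hormone, was 379, 266 and 391 CPM with E2 and 305, 360 and 449 CPM with E2 and P4. The groups did not overlap (1.35, adjusted p = 0.00721). Lrrc15, a membrane protein of activated fibroblasts, was 2.0, 0 and 0 CPM without hormone, 47.7, 26.5 and 15.1 CPM with E2 and 32.4, 16.8 and 12.8 CPM with E2 and P4 (4.70, SE 0.446, adjusted p = 0.00303). Its fold rests on levels near 0 without hormone. Il1rl1, the receptor of interleukin 33, Cthrc1, a secreted collagen-associated protein, and Sdc1, a proteoglycan, rose by 4.50, 3.98 and 2.51. Mrgprg, a receptor of sensory neurons, was 51.0, 271 and 25.1 CPM without hormone, 0.3, 3.0 and 11.8 CPM with E2 and 0.9, 2.8 and 9.6 CPM with E2 and P4 (-4.79, SE 0.693, adjusted p = 0.0143). Itgb7, an integrin chain, fell by 2.23 on the log2 scale (SE 0.443, adjusted p = 0.0381). For Figf, Lrrc15 and Mrgprg all libraries with hormone lay on 1 side of those without. These genes were called on the same libraries, so the separation adds no evidence to the test.

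None of 17 tested estrogen receptor targets, 13 progesterone and glucocorticoid targets, 5 steroid receptors or 10 steroid enzymes passed the test for E2. Beside the background of 1.51%, counts of 0 in lists of this size say little. Esr1 in members was 141, 139 and 157 CPM without hormone, 110, 89.7 and 124 CPM with E2 and 112, 90.8 and 119 CPM with E2 and P4. Of 18 immediate early genes 3 fell, 1 growth factor rose (Figf) and 1 fell (Bmp7, -1.86, adjusted p = 0.0454). Hemoglobin summed to 7.89 to 3011 CPM in members, highest in VCD_High_PBDE_E2_P4. Without cells that held at least 3 hemoglobin UMIs, 132 of the 133 calls for E2 and all 8 calls for P4 with E2 given below were made again.

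P4 given with E2, against E2 alone, changed few genes by this test. Of 8781 genes, 8 (0.0911%) passed, 7 higher and 1 lower, with 806 at an unadjusted p under 0.05 and 52 in DESeq2. Cxcl13, a B cell chemokine, was 55.9, 75.7 and 328 CPM with E2 and 479, 796 and 792 CPM with E2 and P4 (2.72, SE 0.349, adjusted p = 0.0201). Hsd11b1, which regenerates active glucocorticoid, was 43.4, 75.3 and 79.3 CPM with E2 and 245, 172 and 235 CPM with E2 and P4 (1.86, SE 0.230, adjusted p = 0.0176). Cdh11, a mesenchymal cadherin, was 200.3, 183 and 98.9 CPM with E2 and 51.3, 39.1 and 43.1 CPM with E2 and P4 (-1.69, SE 0.196, adjusted p = 0.0132). In all 3 the E2_P4 libraries lay apart from the E2 libraries. The test that called these genes used the same libraries, so this is not separate evidence. The others were Igfbp4 at 1.61 (adjusted p = 0.0489), the matrix protein Fbln1 at 1.58, the complement genes C4b and Serping1 at 1.25 and 1.21 and the lipocalin Apod at 1.20. No call was made without VCD_E2, VCD_E2_P4 or VCD_Low_E2 and 1 without VCD_Low_E2_P4, and 5 were made without VCD_Vehicle or VCD_Low_PBDE, 4 of them among the 8 in each case. There were 12 calls without VCD_High_PBDE, 25 without VCD_High_PBDE_E2_P4 and 238 without VCD_High_PBDE_E2.

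**Figure D5:**
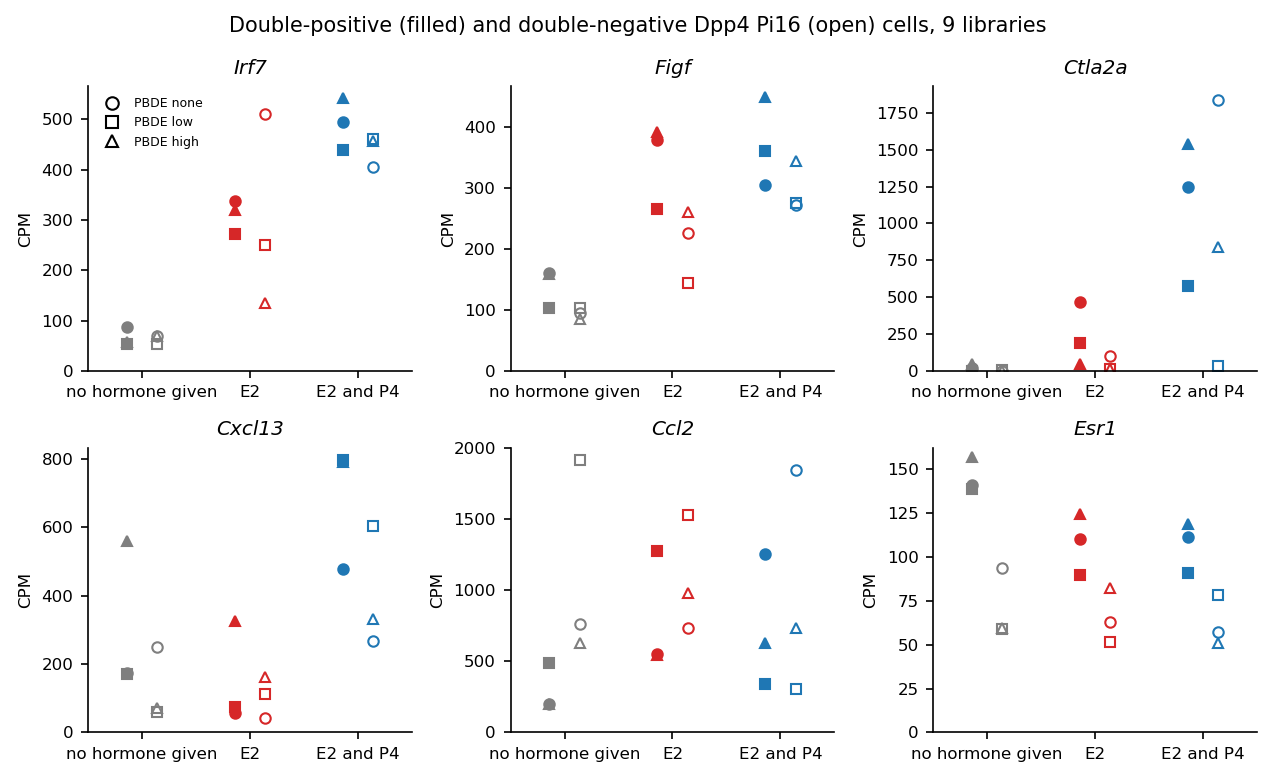
Levels (CPM, y axis) of 6 genes by hormone (x axis) in the 9 libraries of the layout, with PBDE level as the symbol. Filled symbols are double-positive cells and open symbols are double-negative cells of the Dpp4 Pi16 gate. Irf7 in double-positive cells is 54.1 to 87.2 CPM without hormone and above that in every library given hormone.

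In double-negative cells of the gate, drawn from the same libraries, E2 with or without P4 passed 233 of 8745 genes (2.66%), 142 higher (1.62%) and 91 lower (1.04%). The count was 74 without VCD_Low_PBDE, 115 without VCD_Vehicle, 117 without VCD_E2, 133 without VCD_High_PBDE and 155 without VCD_Low_E2. Irf7 rose by 2.53 (SE 0.312, adjusted p = 0.00164), and 13 of 33 tested interferon-induced genes rose with none falling (median 0.79). The mean difference between the responses of both classes was then tested for each gene inside the gate. Of 8215 genes, 1 (0.0122%) passed and 453 had an unadjusted p under 0.05, while DESeq2 called 2. Without VCD_E2 or VCD_Low_E2 there were 2 calls, and 3 without VCD_Low_E2_P4. The 1 call was lost under 4 of 17 alternatives, which were those that redrew or filtered the cells anew. The gene was Ccl2, a monocyte chemokine (chromosome 11, 82035571 to 82037453), with a difference of 1.40 (SE 0.154, adjusted p = 0.00095). A p that misses the threshold does not show that the other genes responded alike in both classes.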

How the data were processed

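Single cells of 12 libraries, 1 per group, were measured. The authors deposited gene-by-barcode matrices of UMI counts made with Cell Ranger 3.1.0 against mm10, per the labels and the study's methods, and these counts are raw and were used as deposited. Members and gene lists were chosen with earlier results of these data known.

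Cells were filtered and classed as the report states. Doublets marked by Scrublet (scanpy 1.11.5) were kept and were left out in an alternative. Raw counts were summed per library and class, scaled by TMM and tested in edgeR 4.0.16 (filterByExpr, glmQLFit, glmQLFTest, R 4.3.3) with Benjamini-Hochberg adjustment over all genes tested, threshold 0.05, and library as a block for classes. Sums of under 10 cells were left out. The SE is the log2 fold change divided by the square root of F. Shares of cells were compared on the logit scale (0.5 added to both counts) by exact permutation (scipy 1.17.1). DESeq2 1.42.0, other filters, other draws of matched cells and left-out libraries were tried. Each fit was first tested on simulated data with 200 genes changed by 1 log2 unit. The class fits recovered 89.5% of these over all fibroblasts and 93.5% inside the gate. Recovery was 45% for E2 in members, 42% for P4, 63% for E2 in double-negative cells and 38% for the interaction. The hormone fits can therefore miss many changes of that size. With 1 library per group, and whether libraries hold several animals unknown, p-values measure the spread between these libraries.

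The genes named were, in each comparison of classes, the 10 largest changes in each direction with at least 20 CPM and the same direction in at least 10 libraries. In hormone comparisons they were the 10 largest changes with at least 20 CPM. From each of 26 lists, up to 4 genes with the smallest adjusted p were added, with the steroid receptors, Pgr, Greb1, Esr1, Dpp4 and Pi16. Further list members are named where counts are spelled out, chosen after their values were seen. Not every gene that the rule names is reported here.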

Additional observations from a re-analysis of the deposited data

Results flagged for a closer look

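Ccl2 was flagged because its response to E2, with or without P4, differed between double-positive and double-negative cells of the Dpp4 Pi16 gate by a test of the difference itself. The interaction was 1.40 on the log2 scale (SE 0.154, adjusted p = 0.00095 in edgeR's quasi-likelihood test). In double-positive cells Ccl2 was 217, 532 and 210.5 CPM without hormone (no, low and high PBDE), 552, 1206 and 576 CPM with E2 and 1331, 354 and 627 CPM with E2 and P4. In double-negative cells it was 761, 1920 and 628 CPM without hormone, 736, 1530.5 and 979 CPM with E2 and 1850.1, 308 and 735 CPM with E2 and P4. In the libraries without hormone the double-positive cells were below the double-negative cells of the same library. With hormone they were also below them, except in VCD_Low_E2_P4 (354 against 308 CPM). The call held under 13 of 17 alternatives, and the difference ranged from 0.56 to 1.49 with the same sign throughout.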

How the results depend on the processing

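Alternatives that left out cells with hemoglobin, and those that replaced random by expected thinning, were chosen after seeing the data. None of the genes chosen by the naming rule as called changed sign in an alternative, and other genes named were not followed through the alternatives. In the comparison of classes over all fibroblasts (1645 genes called), unmatched depth gave 3588 and asking for at least 2 UMIs of 1 of the genes gave 1076. Inside the gate (659), no filter on low counts gave 1066, unmatched depth 1429 and leaving out cells with luminal keratins 387. For E2 in double-positive cells (133), no filter gave 589 and a term for the code of the deposited names 11. For P4 (8), DESeq2 gave 52 and no filter 303. For E2 in double-negative cells (233), no filter gave 657, leaving out doublets 148, leaving out cells with hemoglobin 151 and the code term 83. For the interaction (1), DESeq2 gave 2, no filter 74, the code term 2, and another draw, a 10% mitochondrial limit, no doublets and no hemoglobin cells each gave 0. Leaving out 1 library at a time gave 1369 to 1700 calls for all fibroblasts, 503 to 644 inside the gate, 2 to 391 for E2, 0 to 238 for P4, 74 to 306 for E2 in double-negative cells (74 without VCD_Low_PBDE) and 1 to 3 for the interaction. The logit share of E2 against no hormone was -0.19 within code 1, where PBDE levels were not kept apart. It was -0.021 to 0.83 with 1 library left out (reversed without VCD_Low_E2) and 0.14 to 1.14 over alternatives that kept all 9 libraries. That of P4 with E2 against E2 was -2.58 to -1.25 with 1 library left out. Of the named genes, 65 of 75 kept their call over all fibroblasts, 47 of 68 inside the gate, 1 of 10 for E2 and 0 of 8 for P4. The causes were not tested. No paired analysis was possible because, between treatment groups, each group is 1 library and 1 is its only replicate number. The classes of cells were compared within each library. Counts of 0 to 4 double-positive cells after thinning limit the shares of the smallest groups.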
